A study of Mus musculus with 10 samples.

Results

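Afp, Gpc3 and Lpl are turned down in the mouse liver after birth, Tspan8 and Sox4 are known from progenitor and tumour cells, and Zhx2 and Zbtb20 encode repressors that silence Afp. These 7 genes, of 12366 measured, were selected by their gene symbol in the platform annotation, and all of their 21 probe sets, of 25958, are described. A probe set is a group of short array probes that reports 1 transcript or part of it. The livers came from 5 mutant mice, which carried loxP-flanked Dicer alleles on both chromosomes together with Afp-Cre, a Cre recombinase controlled by Afp regulatory sequences, and from 5 mice that the labels name only as control. The labels do not say whether control mice carried floxed alleles or Cre. All mice were 28 days old, were of a strain given as mixed, and had been fasted for 5 hours. Dicer is the nuclease that makes mature microRNAs, and Afp-Cre acts in the cells of the fetal liver in which the Afp sequences are active. Cells that never used these sequences keep Dicer, so a mutant liver holds cells of both kinds.

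Alpha-fetoprotein, the product of Afp, is the main serum protein of the fetus. Its gene lies in a cluster with albumin and is silenced in hepatocytes in the weeks after birth, and its return in the adult marks regeneration and liver cancer. In mice this silencing needs Zhx2, a zinc finger and homeobox protein that also lowers Gpc3 and Lpl in adult liver, and Zbtb20, a zinc finger protein that binds the Afp promoter. BALB/cJ mice, which carry a natural defect of Zhx2, keep raised Afp as adults.

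Each liver sample gave 1 array, and the arrays are called by group and replicate number. Values are on the log2 scale, so a difference of 1 is a doubling of signal, and the number of arrays limits the precision. Pairs of arrays correlated between 0.970 and 0.993. Differences are mutant minus control with the standard error of limma's moderated test, and were called at a Benjamini-Hochberg adjusted p under 0.05 over all genes or, where a single probe set is given, over all probe sets. Dicer1 was lower in all 5 mutant livers, with means of 5.75 in mutants and 8.06 in controls on the probe set with the larger change. Mutant 5 stood apart from the other mutants: on the first principal component, with 46.8% of the variance, it lay at -15.4, the other mutants lay between 33.4 and 62.2, and the controls lay between -45.8 and -25.6. Its Dicer1 value, 5.84, lay within the mutant range of 5.42 to 5.94. Hepatocyte markers, which are genes of the secreted proteins and the metabolism of these cells, were present at similar levels in every liver. The mean of the 10 markers ran from 15.11 to 15.35 in mutants and from 15.08 to 15.39 in controls, and 0 of 10 were called, or 1 with dim features left out, with 2 at an unadjusted limma p under 0.05. The groups did not overlap for 2 of the 10, against 13.2% of all genes. These means lie near the highest value on any array, 16.65, where differences can be compressed.

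Of the 7 genes, 5 were higher in mutant liver, 0 were lower, and the repressors Zhx2 and Zbtb20 were not called. Over all genes 20.1% were called in either direction, 8.62% higher and 11.5% lower. The median difference of the 7 was 1.12, against -0.01 over all genes. The 7 were chosen with earlier results of these data known, so setting them against all genes is a description and not a test. In whole liver, more cells of a type and more RNA per cell cannot be told apart. The groups did not overlap for 4 of the 7, Afp, Gpc3, Tspan8 and Sox4, always with the mutants above. Over all genes this held for 13.2%, with 6.17% higher and 6.99% lower in mutants. Of the 21 probe sets, 6 were higher and 0 were lower, against 13.2% of all probe sets called in either direction, 5.80% higher and 7.39% lower. Mutants and controls did not overlap on 6 of the 21, against 10.3% of all probe sets. Of all probe sets, 5.00% had the mutants above and 5.32% had them below. In both counts 3 of the 6 were Afp probe sets, and 9 of the 21 were Zbtb20 probe sets. Probe sets of 1 gene do not count as separate measurements. The calls of Afp, Gpc3 and Tspan8 held when any 1 array was left out. Those of Lpl and Sox4 did not, and without control 1 to 4 or mutant 1, 2 or 4, only 3 of the 7 genes were called. These were Afp, Gpc3 and Tspan8.

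**Figure D1:**
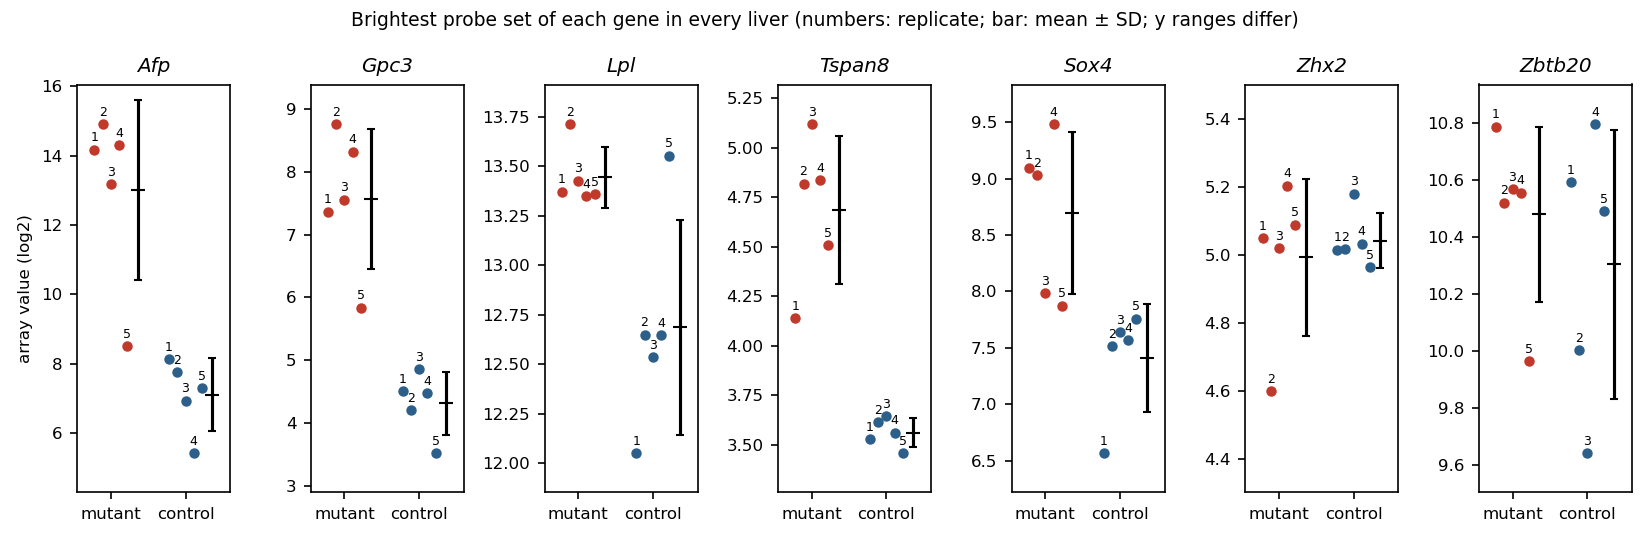
Array value (log2, y axis; ranges differ between panels) of the brightest probe set of each gene in each of 5 mutant and 5 control livers; points are livers with their replicate number, and bars are the mean ± SD. All 5 mutant livers lie above all controls for Afp, Gpc3, Tspan8 and Sox4, mutant 5 is the lowest mutant for Afp and Gpc3, and control 5 lies among the mutants for Lpl.

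Afp showed the largest difference of the 7 genes. On its brightest probe set, 1416645_a_at, it stood at 14.17, 14.91, 13.17, 14.30 and 8.50 in mutants 1 to 5, and at 8.13, 7.76, 6.93, 5.43 and 7.30 in controls 1 to 5. Mutants 1 to 4 lay far above the controls, and mutant 5 lay 0.37 above the highest control. The means were 13.01 ± 2.60 in mutants and 7.11 ± 1.04 in controls (SD, n = 5 each), a difference of 5.90 (SE 1.15, adjusted p = 0.0115), or 59.8-fold. Without mutant 5 the difference was 7.03 (adjusted p = 0.00023). Mutant 5 itself lay 1.39 above the control mean.

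Both other Afp probe sets gave the same picture on different scales. On 1416646_at the values were 13.17, 14.51, 11.93, 13.34 and 7.12 in mutants and 5.40, 4.76, 4.85, 2.68 and 4.11 in controls, a difference of 7.65 (SE 1.27, adjusted p = 0.00998). Only 1 of the 25958 probe sets differed by more. On 1436879_x_at, whose suffix marks probes that can also bind other transcripts, the difference was 5.18 (SE 1.05, adjusted p = 0.0175), with means of 10.79 ± 2.38 in mutants and 5.61 ± 0.90 in controls (SD, n = 5 each). The mutants kept the same order on all 3 probe sets. Mutant 2 was the highest and mutant 5 the lowest mutant, and control 1 was the highest and control 4 the lowest control. Control livers reached values under the lower quartile of all array values only on 1416646_at, in control 4, and the size of that difference depends on how background was treated.

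Afp lies between Alb and Afm, the genes of albumin and afamin, 2 related plasma proteins, with no other protein-coding gene between them. The upstream sequences of these 3 genes and of Gpc3 are shown because Afp and Gpc3 rose while no measured neighbour of Afp was called higher. They are the 250 bases before the annotated start, from RefSeq on build GRCm38.p6, 5′ to 3′ on the strand of the gene. Capitals mark TATAAA, letters of a TATA box, and GGGCGG, letters of a GC box, on either strand. The 2 motifs do not overlap each other.
Afp (chr5:90490464-90490713, plus strand): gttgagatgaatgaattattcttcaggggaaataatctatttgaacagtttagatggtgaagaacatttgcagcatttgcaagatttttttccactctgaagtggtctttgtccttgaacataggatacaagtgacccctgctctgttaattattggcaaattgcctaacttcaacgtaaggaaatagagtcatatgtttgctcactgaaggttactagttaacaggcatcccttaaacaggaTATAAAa
Alb (chr5:90460620-90460869, plus strand): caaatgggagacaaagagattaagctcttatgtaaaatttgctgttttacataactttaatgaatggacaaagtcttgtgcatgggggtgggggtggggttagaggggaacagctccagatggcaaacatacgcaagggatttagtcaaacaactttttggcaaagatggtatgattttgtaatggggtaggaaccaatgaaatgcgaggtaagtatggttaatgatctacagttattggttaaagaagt
Afm (chr5:90518699-90518948, plus strand): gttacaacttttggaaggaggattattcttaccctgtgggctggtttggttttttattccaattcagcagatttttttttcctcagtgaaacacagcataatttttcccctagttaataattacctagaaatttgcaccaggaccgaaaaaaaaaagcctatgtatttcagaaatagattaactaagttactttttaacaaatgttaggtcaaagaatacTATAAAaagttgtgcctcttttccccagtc
Gpc3 (chrX:52613975-52614224, minus strand): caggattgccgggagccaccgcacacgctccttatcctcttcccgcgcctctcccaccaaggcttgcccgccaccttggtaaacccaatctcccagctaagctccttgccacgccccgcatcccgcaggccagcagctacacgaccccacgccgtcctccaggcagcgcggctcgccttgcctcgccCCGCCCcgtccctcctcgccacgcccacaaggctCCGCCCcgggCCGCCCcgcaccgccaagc

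The Afp window held TATAAA at 7 to 2 bases before the annotated start and the Afm window at 30 to 25 bases before it, while the Alb window held neither motif. Only exact letters were searched, and the windows end at annotated starts whose placing was not checked. A match is thus not shown to be a working TATA box, and a window without one does not show that the gene lacks it. Of all 32851 upstream windows of that length, 12.4% held TATAAA and 32.7% held GGGCGG. Gpc3 held GGGCGG 3 times, on the reverse strand, and no TATAAA. Its window had 71.6% G and C bases, against 36% for Afp and a median of 52.4% over all windows. Windows of Tspan8, Sox4 and Zbtb20 were also searched and held neither motif.

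The neighbours of Afp showed small differences. Alb averaged 16.24 ± 0.12 in mutants and 16.20 ± 0.11 in controls (SD, n = 5 each), a difference of 0.04 (adjusted p = 0.770) with a 95% interval up to 0.21. These values lie close to the highest on any array, 16.65, where differences can be compressed. Afm was slightly lower, at 13.35 ± 0.11 in mutants and 13.59 ± 0.09 in controls (SD, n = 5 each), a difference of -0.24 (adjusted p = 0.0370). That call was lost under each of 3 other normalizations and without any 1 array other than mutant 5 (adjusted p up to 0.126).

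Gpc3 encodes glypican-3, a heparan sulfate proteoglycan of the cell surface that restrains growth in the embryo and is, like Afp, a marker of liver cancer. Its single probe set, 1450990_at, stood at 7.36, 8.76, 7.56, 8.32 and 5.84 in mutants 1 to 5 and at 4.50, 4.21, 4.86, 4.47 and 3.52 in controls 1 to 5. The groups did not overlap, and mutant 5, the lowest mutant, lay 0.98 above the highest control. The difference was 3.25 (SE 0.50, adjusted p = 0.00705), or 9.54-fold, with a 95% interval of 2.12 to 4.39. Without mutant 5 it was 3.69 (adjusted p = 0.000368). Mutant 5 itself lay 1.53 above the control mean.

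The other glypican genes were listed with enzymes of heparan sulfate assembly and proteins that cleave, release or bind glypicans. Of 10 measured, 0 were higher, 1 was lower and 9 were not called, with a median of -0.16 against -0.01 over all genes, with 1 at an unadjusted limma p under 0.05. The gene that fell was Gpc4, the glypican-4 gene, which stood at 9.26 ± 0.21 in mutants and 10.02 ± 0.08 in controls (SD, n = 5 each). Its difference was -0.77 (adjusted p = 0.00429) and -0.41 on its other probe set.

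Tspan8 encodes a tetraspanin, a membrane protein with 4 membrane-spanning segments, that is found on epithelial and tumour cells. On 1424649_a_at it stood at 4.14, 4.82, 5.12, 4.84 and 4.51 in mutants and at 3.53, 3.62, 3.64, 3.56 and 3.46 in controls. All mutants lay above all controls, the lowest mutant 0.50 above the highest control, and the controls lay in a narrow band around the lower quartile of all array values. The difference was 1.12 (SE 0.16, adjusted p = 0.00617), and 1.17 without mutant 5, which here lay among the other mutants. The control level was not shown to be above background, so the size of this difference depends on how background was treated. With the 3 probe sets of the gene averaged it was 0.39. The other 2 probe sets of Tspan8 were dimmer and differed by 0.04 and -0.00, with 95% intervals of -0.09 to 0.17 and -0.08 to 0.07. Their means lay between 2.25 and 2.82 in both groups. Of 19 other tetraspanin genes, 1 was higher, 1 was lower and 17 were not called, with a median of 0.00. Cd82 was higher by 0.42 (adjusted p = 0.0316), a call lost without any 1 of 7 arrays (adjusted p up to 0.0740). Those arrays were mutants 1, 3 and 4 and controls 2 to 5. Tspan33 fell, at 6.49 in mutants and 7.48 in controls, a difference of -0.998 (adjusted p = 0.0133), and without mutant 5 there were 2 lower tetraspanin genes.

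**Figure D2:**
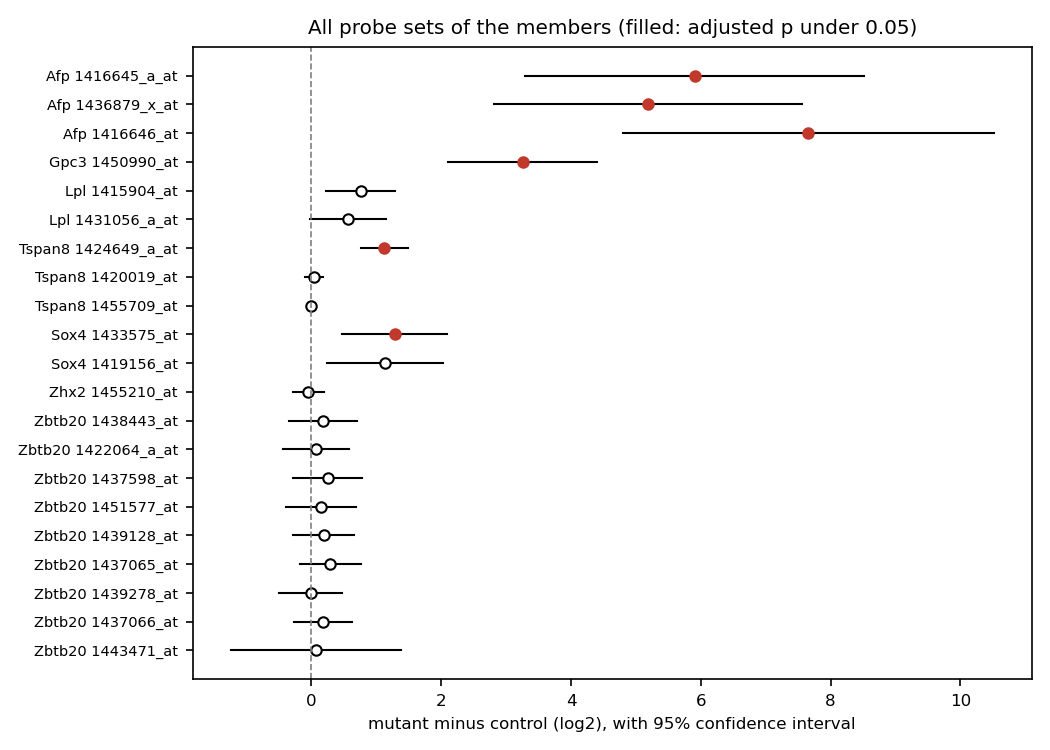
Mutant minus control difference (log2, x axis) of each of the 21 probe sets with its 95% confidence interval; filled points were called at an adjusted p under 0.05 over all probe sets. The 3 Afp probe sets lie between 5.18 and 7.65, Gpc3 at 3.25, and the 9 Zbtb20 probe sets between -0.01 and 0.29.

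Sox4 encodes a transcription factor of progenitor cells with an HMG box. On 1433575_at it stood at 9.10, 9.03, 7.99, 9.48 and 7.87 in mutants and at 6.57, 7.51, 7.64, 7.57 and 7.76 in controls. Mutants 1, 2 and 4 lay well above the controls, and mutants 3 and 5 lay just above the highest of them. The difference was 1.28 (SE 0.36, adjusted p = 0.0345), or 2.44-fold, and 1.49 without mutant 5 (adjusted p = 0.0120). The call was kept without mutant 3 (adjusted p = 0.0352) but lost without any 1 of the 8 other arrays, where the adjusted p ran from 0.0504 to 0.0772.

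The dimmer Sox4 probe set, 1419156_at, showed the same split among the mutants. It stood at 5.88, 5.90, 4.11, 5.84 and 4.14 in mutants and at 3.97, 4.12, 3.998, 4.14 and 3.97 in controls. Mutants 1, 2 and 4 lay above every control, and mutants 3 and 5 lay inside the control range. The difference of 1.13 (SE 0.40, adjusted p = 0.0941) was not called, but it was without mutant 5, at 1.39 (adjusted p = 0.0268). Of 10 other Sox genes, 1 was higher, 0 were lower and 9 were not called, with a median of 0.08. The gene that rose was Sox6, a regulator of erythroid and muscle genes, by 1.06 (adjusted p = 0.00988), with its 4 probe sets between 0.44 and 1.23. Sox9, a transcription factor of bile duct cells, stood at 5.59 in mutants and 5.36 in controls (adjusted p = 0.418), and Sox11, a close relative of Sox4, at 3.45 in mutants and 3.34 in controls (adjusted p = 0.373).

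Lpl encodes lipoprotein lipase, which releases fatty acids from circulating triglyceride and which adult hepatocytes are known to keep low. In these livers Lpl was nevertheless bright in both groups. Its control mean, 12.69, lay at percentile 95.8 of the control means of all genes, and its mutant mean at percentile 97.8. On 1415904_at it stood at 13.37, 13.71, 13.43, 13.35 and 13.36 in mutants and at 12.05, 12.65, 12.54, 12.65 and 13.55 in controls. The mutants lay close together, 4 controls lay below them, and control 5 lay above 4 of the 5 mutants. The difference was 0.76 (SE 0.23, adjusted p = 0.0484 over all genes and 0.0638 over all probe sets), or 1.69-fold. Without control 5 it was 0.97 (adjusted p = 0.0123), and without any 1 other array the adjusted p ran from 0.0548 to 0.105. The second Lpl probe set, 1431056_a_at, also had its highest value in control 5, at 12.02, and a difference of 0.56 (SE 0.26, adjusted p = 0.187). Mutant 5 lay with the other mutants, 0.67 above the control mean against 0.78 for mutants 1 to 4.

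No measured partner of lipoprotein lipase was called higher. Of 12 measured, 0 were higher, 1 was lower and 11 were not called, with a median of 0.01, with 2 at an unadjusted limma p under 0.05. The gene that fell was Lmf1, whose product is needed to fold the enzyme, at 8.29 ± 0.40 in mutants and 9.04 ± 0.18 in controls (SD, n = 5 each). Its difference was -0.75 (adjusted p = 0.0219), and its call was lost without mutant 4 or control 3 (adjusted p up to 0.0536). Without control 5, 2 partners were called lower.

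Zhx2 showed no detectable difference on its single probe set. It stood at 5.05, 4.60, 5.02, 5.20 and 5.09 in mutants and at 5.02, 5.02, 5.18, 5.03 and 4.96 in controls. Apart from mutant 2, the lowest of all, mutant and control livers covered the same narrow range. The difference was -0.05 (SE 0.11, adjusted p = 0.805), with a 95% interval of -0.29 to 0.19. Without any 1 array it ran from -0.10 to 0.05. Both group means, 4.99 in mutants and 5.04 in controls, lay under the median of all array values, 6.55. The probe set was not shown to be above background, so a change of Zhx2 RNA could be missed. The relatives Zhx1 and Zhx3 differed by 0.06 (adjusted p = 0.586) and -0.28 (adjusted p = 0.248). Of the 4 measured genes of the list of relatives and other repressors of Afp, 0 were called, or 1 without mutant 5 or with array weights, with 2 at an unadjusted limma p under 0.05.

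Zbtb20 was called on none of its 9 probe sets. The 9 differences lay between -0.01 and 0.29, and 0 of 9 reached an unadjusted limma p under 0.05. On the brightest, 1438443_at, it stood at 10.79, 10.52, 10.57, 10.56 and 9.96 in mutants and at 10.59, 10.002, 9.64, 10.80 and 10.49 in controls. The groups overlapped widely, and the difference was 0.17 (SE 0.23, adjusted p = 0.660), with a 95% interval of -0.35 to 0.70. Without mutant 5 it was 0.30 (adjusted p = 0.365), and without control 3 it was 0.01.

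The 9 Zbtb20 probe sets varied together from liver to liver. Mutant 1 was the highest and mutant 5 the lowest mutant on 9 of 9, and control 4 was the highest and control 3 the lowest control on 9 of 9. Averaged over the 9, the livers lay 0.56, 0.12, 0.18, 0.23 and -0.34 from the control mean in mutants 1 to 5 and 0.22, -0.28, -0.71, 0.59 and 0.19 from it in controls 1 to 5. These probe sets report 1 gene in the same RNA, so they do not count as separate measurements. Among mutants the liver with the lowest Zbtb20, mutant 5, also had the lowest Afp. Among controls the liver with the highest Zbtb20, control 4, had the lowest Afp. With 5 livers in a group, no relation between both genes was tested.

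**Figure D3:**
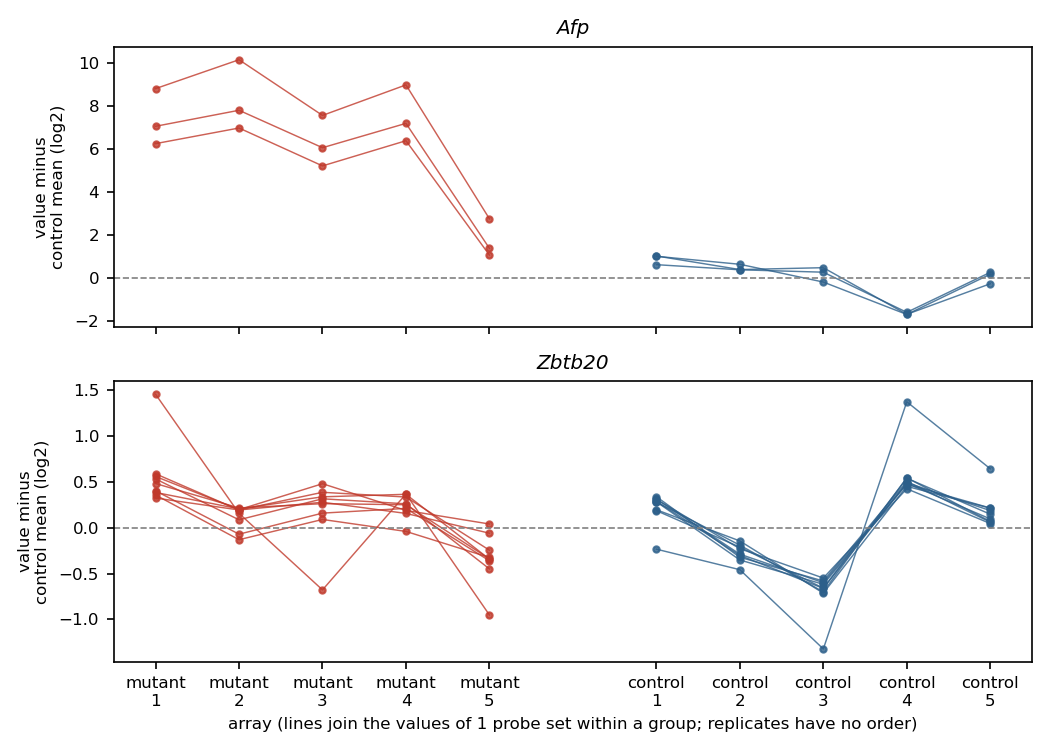
Value minus the control mean (log2, y axis) in each liver (x axis) for the 3 probe sets of Afp (top) and the 9 of Zbtb20 (bottom); each line is 1 probe set, mutants at the left and controls at the right. Mutant 5 is the lowest mutant in both panels, and control 4 is the lowest control for Afp and the highest for Zbtb20.

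Activators of Afp were not called either. Of 8 measured transcription factors of the hepatocyte, 0 were called, and the median difference was 0.11, with 1 at an unadjusted limma p under 0.05. Cebpb and Hnf4a, the brightest, stood at 12.92 in mutants and 13.04 in controls (adjusted p = 0.753) and at 12.11 in mutants and 11.93 in controls (adjusted p = 0.381). Without mutant 5 or control 5, with any of 3 other normalizations, with array weights or with dim features left out, 1 was called higher. Foxa1, a pioneer factor of liver genes and the one nearest to a call, stood at 7.96 in mutants and 7.28 in controls (adjusted p = 0.0550).

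Of 8 other listed genes whose level in adult mouse liver depends on Zhx2, only 3 were measured. Of these 3, 0 were higher, 2 were lower and 1 was not called. The median, -2.32, is the value of Cyp4a12a, the gene not called. It ran from -3.02 without mutant 1 to -1.38 without mutant 5. The 3 measured genes need Zhx2 for full expression, unlike Afp, Gpc3 and Lpl, so they do not represent genes that Zhx2 lowers. Elovl3, a fatty acid elongase, averaged 5.88 ± 1.70 in mutants and 9.34 ± 1.26 in controls (SD, n = 5 each), a difference of -3.46 (adjusted p = 0.0253). It was not called without mutant 4 or control 1, 4 or 5 (adjusted p up to 0.0602). Mup3, a major urinary protein, averaged 14.15 ± 0.49 in mutants and 14.85 ± 0.14 in controls (SD, n = 5 each), a difference of -0.71 (adjusted p = 0.0446). Mup genes are near-identical copies, so its identity is uncertain, and of the 10 fits without 1 array only that without mutant 5 kept its call (adjusted p up to 0.0965). Cyp4a12a, a cytochrome P450, was not called, at 7.13 ± 3.41 in mutants and 9.44 ± 1.71 in controls (SD, n = 5 each, adjusted p = 0.336). Its mutants 1, 3 and 4 lay between 9.07 and 9.93, inside the control range of 7.61 to 11.27. Mutants 2 and 5 stood at 3.41 and 3.40. Elovl3 and Cyp4a12a are also sex-biased in adult liver. The labels give no sex, and its part in the differences of all 3 genes, Mup3 included, was not tested.

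Of 12 other fetal liver genes, 3 were higher, 0 were lower and 9 were not called, with a median of 0.36. The same count was found without any 1 array. Only 6 of the 12 reached the median array value, 6.55, in either group. The others ran from just under it, such as Hk1 at 6.53 in mutants, down to Dlk1 at 2.58 in mutants. A change of the dimmest could be missed. The 3 higher genes reached the median array value in mutants only, with control means under it. A list median over the 6 genes that reached it would therefore be raised by the filter itself and is not used. The genes that rose were the imprinted genes Meg3, a noncoding RNA, and Igf2, a growth factor, and the fetal cytochrome P450 Cyp3a16. Igf2 averaged 14.88 ± 0.72 in mutants and 5.37 ± 3.69 in controls (SD, n = 5 each), a difference of 9.52 (adjusted p = 0.00742). Its other probe set differed by 3.74 and the mean of both by 6.63, and 3 controls lay under the lower quartile of all array values, so the size depends on the probe set and on how background was treated. Meg3 averaged 12.75 ± 1.29 in mutants and 5.50 ± 1.51 in controls (SD, n = 5 each), a difference of 7.26 (adjusted p = 0.00308). Its 11 probe sets differed by 1.35 to 7.30, and their mean by 4.89. Cyp3a16 averaged 8.44 ± 0.63 in mutants and 4.46 ± 1.38 in controls (SD, n = 5 each), a difference of 3.98 (adjusted p = 0.00718). Its controls 1 and 4, at 2.83 and 3.41, lay under the lower quartile of all array values, so this size also depends on how background was treated. In mutant 5, Meg3, Igf2 and Cyp3a16 stood at 10.45, 13.64 and 8.80, against mutant means of 12.75, 14.88 and 8.44, so that Cyp3a16 was not low in that liver. The fetal genes that were not called included the oncofetal RNA-binding protein gene Igf2bp3, at 8.06 in mutants and 7.86 in controls (adjusted p = 0.403), and the chromatin protein gene Hmga2, at 2.83 in mutants and 2.82 in controls (adjusted p = 0.890), levels under the lower quartile of all array values.

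**Figure D4:**
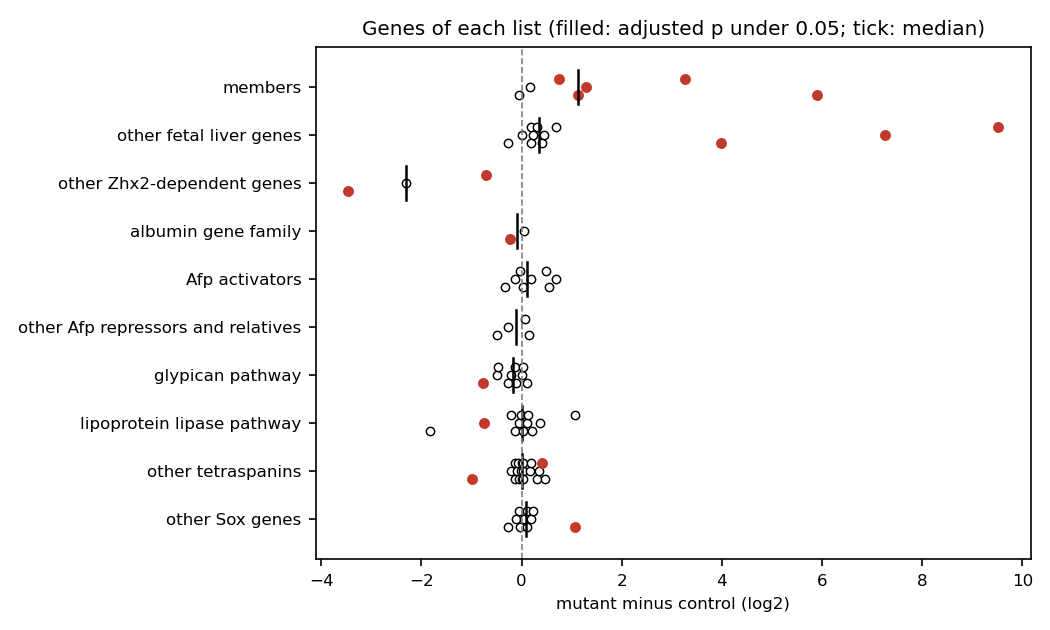
Mutant minus control difference (log2, x axis) of each measured gene in 10 gene lists (y axis), at 1 probe set a gene; filled points were called at an adjusted p under 0.05, and the tick is the median of the list. The members have a median of 1.12, and the glypican, lipase, tetraspanin, Sox and activator lists have medians between -0.16 and 0.11.

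The livers were ordered differently by the different fetal genes. Profiles over the 10 arrays were compared after each gene was scaled to a mean of 0 and an SD of 1, by the root mean square difference, which is 0 for identical profiles and 2 for mirror images. Afp and Gpc3 differed by 0.34 and Gpc3 and Tspan8 by 0.44, while Afp differed from Sox4 by 0.61, from Lpl by 0.85 and from Zbtb20 by 1.11. Zhx2 differed from the 6 others by 1.51 to 1.66. These profiles hold the step between the groups as well as the spread within them.

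Among 6075 brighter genes that carry a proper name, the profiles most like that of Afp were those of Igf2r, the receptor that clears IGF2 (0.17), Atp6v1b2, a subunit of the vacuolar proton pump (0.18), the kinase Wnk1 (0.18), the prostaglandin dehydrogenase Hpgd (0.21) and the ADP-ribosyltransferase Parp12 (0.21). Igf2r stood at 10.50, 10.84, 10.62, 10.67 and 9.31 in mutants 1 to 5 and between 8.40 and 8.96 in controls. Its mutants thus fell into the same 4 high livers and 1 lower liver as those of Afp. The profiles most like that of Gpc3 were those of Tnrc6a, a scaffold of the microRNA silencing complex (0.17), the microtubule-binding protein Mapre1 (0.17), the phosphatase-like Styx (0.18), the cadherin Cdhr5 (0.19) and the imprinted adaptor Grb10 (0.19). These genes were picked for their likeness over the same arrays, so their differences are not tested here.

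The livers also differed in markers of other cells, some of which express the same genes. Of 12 measured macrophage markers, 8 were higher and 0 were lower, and their mean ran from 9.92 to 10.48 in mutants and from 8.93 to 9.96 in controls. Macrophages make lipoprotein lipase. Control 5, the liver with high Lpl, had a macrophage mean of 9.66, within the control range, and mutant 5 had one of 10.09. The number of macrophage markers called higher was 3 without control 1 or mutant 1, 2 or 4, 4 without control 5 and 5 without control 4. Of 11 stellate cell and matrix markers, 6 were higher and 0 were lower, with a mean from 9.65 to 10.15 in mutants and from 9.23 to 9.56 in controls, and 3 were higher without mutant 4 and 4 without mutant 2. In mutant 5 this mean was the lowest of the mutants. The part of these cells in the differences of Lpl and of the other genes was not tested.

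Biliary and progenitor cells can express Sox4 and Tspan8. Of 7 measured markers of these cells, 1 was higher and 0 were lower, and their mean ran from 4.67 to 5.49 in mutants and from 3.87 to 4.27 in controls. The one that rose was Prom1, a surface protein of progenitor cells, by 4.03 (adjusted p = 0.0128). No other marker of the list differed by more than 0.85, so the gap between the list means rests mostly on Prom1. The keratins of bile duct cells were low in both groups, with Krt19 at 3.89 in mutants and 3.57 in controls (adjusted p = 0.250) and Krt7 at 3.33 in mutants and 2.53 in controls (adjusted p = 0.0577). The bile duct and progenitor marker Epcam stood at 4.93 in mutants and 4.98 in controls (adjusted p = 0.587). The median difference of these markers was 0.32. All but Prom1 lay under the median of all array values in both groups, and 2 markers were called higher without mutant 1 or with arrays centred on the 75th percentile. Their part in the differences of Sox4 and Tspan8 was not tested.

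**Figure D5:**
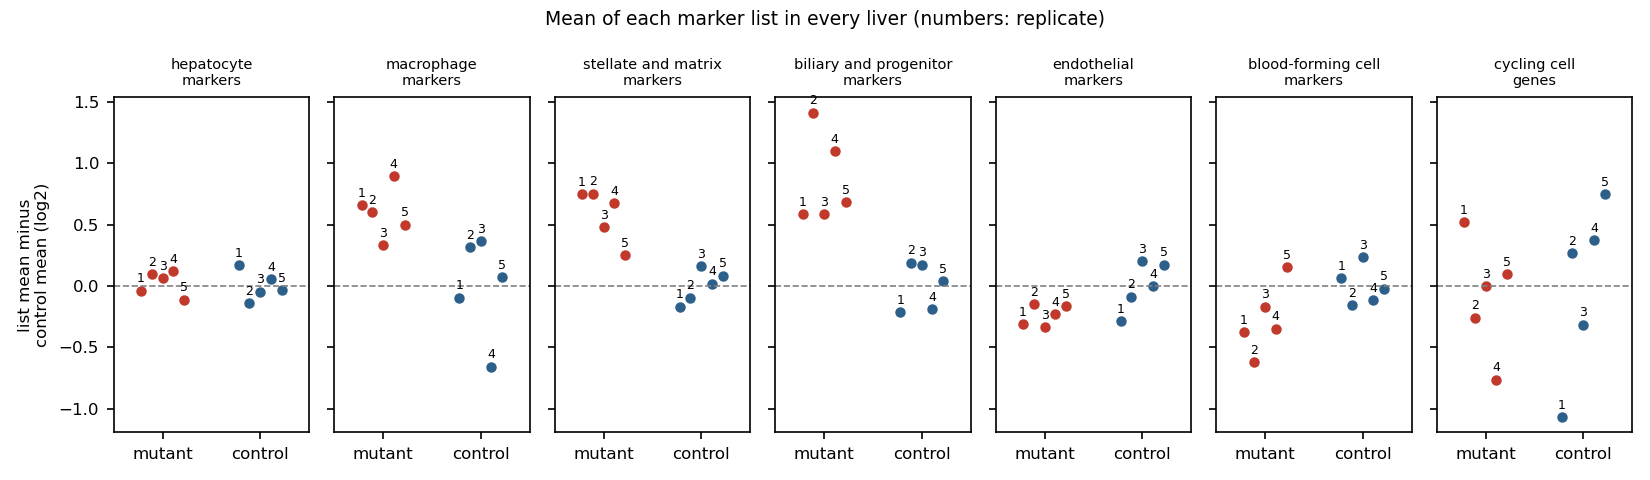
Mean of each marker list minus its control mean (log2, y axis) in each of 5 mutant and 5 control livers; points are livers with their replicate number. Macrophage, stellate and biliary means are higher in most or all mutants, the biliary mean mostly through Prom1. Hepatocyte means lie close to the control mean in every liver.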

How the data were processed

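Each of 10 livers gave 1 array, hybridised with biotin-labelled RNA after amplification, per the labels' protocols. The values used are on the log2 scale, as the authors deposited them in a single table. That scale follows from their range, 0.27 to 16.65, and no source used here names the background correction, summary or normalization. After 37 control probe sets were left out, 25958 were tested. Of these, 21613 carried 1 gene symbol in the platform annotation and gave 12366 genes, each at the probe set with the highest mean.

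Differences were tested with limma (lmFit and eBayes, version 3.58.1, under R 4.3.3). Tests were two-sided, and Benjamini-Hochberg adjustment covered all genes or all probe sets. Every adjusted p in the text comes from these fits, whose scripts were tested on simulated data. Replicates are livers that the labels list as separate samples, and no litter, sex or batch is given, so p-values reflect only the spread between these samples. The members and lists were chosen with earlier results of these data known. List genes are named if called, up to 4 a list by p, or else as the 2 brightest. Marker genes are mostly given as counts, and Alb, Cyp4a12a, Sox9, Sox11, Zhx1, Zhx3, Igf2bp3, Hmga2, Prom1, Krt7, Krt19, Epcam and Foxa1 were named in addition, after their values were seen. Upstream sequences matched 5 of the 7 members by symbol. Alternatives were 3 other normalizations, a filter on dim features, trend and robust options, array weights, a replicate block, other probe set rules and leaving out each array.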

Additional observations from a re-analysis of the deposited data

Results flagged for a closer look

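In 6 of 42 groups of 5 livers, 1 liver lay far from the others relative to the range of its group. Chance flags about 5% of such groups, and probe sets of 1 gene are not independent. Mutant 5 had 8.50 on the Afp probe set 1416645_a_at, with the nearest mutant at 13.17, and 8.24 on the Zbtb20 probe set 1439128_at, with the nearest at 8.79. Both are the lowest mutant values of genes that share this liver's low place on their other probe sets. Control 4 had 4.02 on the Afp probe set 1436879_x_at, with the nearest control at 5.88. Mutant 2 was the highest mutant for Lpl, at 13.71 against 13.43 for the nearest, and on the dim Tspan8 probe set 1420019_at, at 3.04 against 2.82. Control 1 had the lowest Sox4, at 6.57, with the nearest control at 7.51.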

How the results depend on the processing

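No result reversed its direction while called. The number of member genes called higher was 5 under 3 other normalizations, trend and robust options and array weights. It was 4 with dim features left out, since Tspan8 then goes untested, and 4 under both other rules for choosing or averaging probe sets, where Lpl was not called. Leaving out 1 array at a time gave 3 to 4 member genes and 5 to 7 member probe sets called higher. Over all genes it gave 627 to 1371 higher and 764 to 2160 lower, against 1066 and 1422 with all arrays. Over all probe sets it gave 776 to 2115 higher and 770 to 3194 lower, against 1505 and 1917. Leaving out any of the 10 arrays moved at least 1 of these 4 counts by over 1.5 times, with the lowest without mutant 4 and the highest without mutant 5. With fewer arrays a fit has less power, and the cause of the rise without mutant 5 was not tested. Livers with the same replicate number showed little likeness. Of 5 same-number pairs, 2 had a correlation of deviations over 0.1, and 1 of 5 mutants was most like the control of its own number. With 5 livers in a group, this check cannot decide whether the livers were paired. With the replicate number as a block, 3 member genes and 907 probe sets were called higher, and Lpl (adjusted p = 0.0725) and Sox4 (adjusted p = 0.0776) were not called. With the block, 2 macrophage markers were called higher and 1 endothelial marker lower, against 8 and 2 without it. Dim probe sets, such as those of Tspan8 and Zhx2, and hepatocyte markers such as Alb near the top of the scale limit what a difference can show.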

Other observations

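Markers of other cell types and states gave few calls. Of 10 endothelial markers, 0 were higher and 2 were lower, with a median difference of -0.14 and a mean over the list of 8.97 to 9.16 in mutants and 9.02 to 9.51 in controls. Only 1 was lower without mutant 1, 3 or 4 or control 1, 3, 4 or 5, and under each of 3 other normalizations. Of 7 markers of blood-forming cells, which fill the fetal liver beside Afp-expressing hepatoblasts, 0 were called and 0 reached an unadjusted limma p under 0.05. Their mean ran from 4.39 to 5.16 in mutants and from 4.85 to 5.24 in controls, and only 1 of the 7 reached the median array value in either group. Of 11 genes of cycling cells, 0 were called and 0 reached an unadjusted limma p under 0.05, and their mean ran from 5.68 to 6.96 in mutants and from 5.37 to 7.19 in controls. Of these, 6 reached that median in either group. The only measured adipocyte marker, of a cell type rich in lipoprotein lipase, differed by -0.20 and was not called.

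Igf2 was uneven among controls. It stood at 11.34 in control 1 and between 2.69 and 6.52 in the other controls, against 13.64 to 15.49 in mutants. Control 1 also had the highest Afp and Meg3 of the controls.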
